A study of Mus musculus with 127 samples.

Results

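The genes described here are 52 mouse genes of autophagy and the lysosome, fixed by name, and all 52 were matched by symbol among the 53465 genes of the deposited count table. They were sorted by role into 9 lists: the ULK initiation complex (5 genes), the PI3-kinase complex (5), membrane supply and LC3 conjugation (11), cargo receptors (5), transcription factors (2), lysosomal membrane proteins (4), cathepsins (5), glycosidases with other hydrolases and their helper proteins (9), and the V-ATPase (6). RNA was measured by Patch-seq, in which the content of a recorded cell is drawn into the pipette and its full-length cDNA is sequenced, in 113 striatal neurons and 14 astrocytes. The study set neurons with a short polyglutamine tract against neurons with a long one, the latter a culture model of Huntington's disease, each with and without an inhibitor of histone deacetylases.

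All cells came from newborn C57BL/6 mice and were collected on day 15 in vitro; the striatal neurons had grown on small islands of cortical astrocytes. In the 4 transgene groups a lentivirus delivered exon 1 of human HTT fused to GFP, with 25 glutamines (25Q, labelled wild type) or 97 glutamines (97Q, labelled mutant). RGFP109, an inhibitor of HDAC1 and HDAC3, was added at 100 nM on days 6, 9 and 12, and the vehicle was DMSO. The groups held 29 neurons of 25Q with vehicle, 26 of 97Q with vehicle, 23 of 25Q with RGFP109 and 26 of 97Q with RGFP109, each spread over batches 1, 2 and 3. A further 9 neurons infected with an empty vector and 14 untreated astrocytes labelled as cortex came from batch 3 alone. The labels name neither the animal nor the culture of a cell, and the human transgene is not a row of the table, so the construct of a cell could not be checked on its RNA. The endogenous mouse alleles of Htt remain in every group.

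Autophagy encloses cytoplasmic material in a double membrane and delivers it to the lysosome. The ULK kinase complex and a PI3-kinase complex start the membrane, a ubiquitin-like conjugation system couples LC3 proteins to it, and receptors such as p62 bind both LC3 and ubiquitinated cargo. In the lysosome, a proton pump, the V-ATPase, acidifies the lumen in which cathepsins and glycosidases work, and the factors TFEB and TFE3 bind a DNA motif shared by many lysosomal genes; in neurons this pathway is known for clearing aggregated proteins, mutant huntingtin among them.

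Total counts per cell ran from 999700 to 9263305. Cells are not replicates, so the raw counts of each group within a batch were summed, which gave 12 sums of 3 to 15 neurons for the 4 transgene groups (n = 3 sums per group). A level below is CPM, the counts of such a sum scaled to its total, unless a single cell is named, and a log2 fold change comes from the edgeR fit over these sums. Because no label says that the batches are separate litters or cultures, the p-values measure only the spread between these sums, which may be technical. Astrocyte markers summed to 11.6 to 10541 CPM in the neurons and to 13054 to 38855 CPM in the astrocytes, and 22 of the 113 neurons passed 10% of the astrocyte median. Of the 20 astrocyte markers, only Gjb6 and Agt were without a count in some of the 4 transgene groups. GABAergic and striatal markers summed to 3922 to 6253 CPM in the 6 sums of 25Q and to 1173 to 2466 CPM in the 6 sums of 97Q, without overlap. Endothelial and mural markers summed to 2351 CPM in the batch 1 sum of 97Q with vehicle and to 109 to 400 CPM in the other 11 sums. The part of either marker difference in the results below was not tested.

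One library stood apart from its label. Neuron 9 of the 97Q group with RGFP109, in batch 2, had 13475 CPM of microglia and macrophage markers, against at most 1549 CPM in the other neurons. Of that list 10 of 15 genes had a count, led by Ctss with 12217 CPM, and P2ry12, C1qa, C1qc, Cx3cr1 and Tmem119 were at 0. Its pan-neuronal markers summed to 1010 CPM, against 1538 to 15262 CPM in the others. The same library had 23225 CPM of Ctsl, against at most 2004 CPM in any other neuron. The batch 2 sum of its group holds 4 neurons, and without this one the level of 22 of the 52 genes in that sum moved by over 1.5 times, up or down. Fold changes that moved by as much are given with and without it.

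Counting could not be traced to a strand setting, and 21 of the 52 genes share annotated exon sequence with another gene, so their reads may be split or shared. Among the genes described most, the overlap was 3104 of 7065 exonic bases for Becn1 (with Cntd1), 2137 of 6489 for Ctsl, 808 of 2351 for Ctsd, 774 of 6051 for Ctsb and 580 of 3356 for Sqstm1. Map1lc3a, Lamp2 and Atp6v1b2 had none.

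The core of the motif known for TFEB and TFE3 was searched because both factors are members of the list; other factors of the basic helix-loop-helix class are known to bind its CACGTG centre too. Promoter windows of 300 bases, from 250 before to 50 after the start, were given by RefSeq (GRCm38.p6) for 42 of the 52 genes. The palindrome TCACGTGA, which reads alike on both strands and contains the shorter CACGTG, was present in 7 of these 42 (16.7%), against 304 of 27025 genes with a window (1.12%) and 8 of 98 other genes of the pathway (8.16%). CACGTG alone was present in 14 of 42 (33.3%), against 24 of 98 other genes of the pathway (24.5%) and 8.09% of all genes. With a G before and a C after it, TCACGTGA was present in 0 of 42, against 4 of 98 other pathway genes and 0.37% of all genes. The 7 with TCACGTGA were Atg3, Atp6v0d1, Atp6v1a, Ctsa, Ctsd, Gla and Mcoln1. The start meant here is the RefSeq start of the window, and a gene can begin earlier in the GENCODE annotation. On GENCODE positions the printed motifs of Ctsd, Ctsa, Mcoln1 and Atp6v1a lie within the gene. The stretches around 6 of the sites that lie before the RefSeq start are printed 5′ to 3′ on the strand of the gene, with the motif in capitals.
Ctsd, chr7:142387889-142387956, minus strand: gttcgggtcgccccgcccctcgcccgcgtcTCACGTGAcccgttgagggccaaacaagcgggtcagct
Ctsa, chr2:164833730-164833772, plus strand: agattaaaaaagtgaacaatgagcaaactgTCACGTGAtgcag
Mcoln1, chr8:3500443-3500510, plus strand: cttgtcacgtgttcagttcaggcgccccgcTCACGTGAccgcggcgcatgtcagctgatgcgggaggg
Gla, chrX:134601163-134601230, minus strand: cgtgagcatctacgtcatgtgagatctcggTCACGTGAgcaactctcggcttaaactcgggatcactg
Atp6v1a, chr16:44139354-44139421, minus strand: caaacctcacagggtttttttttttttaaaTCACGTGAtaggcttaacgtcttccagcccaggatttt
Atg3, chr16:45158727-45158794, plus strand: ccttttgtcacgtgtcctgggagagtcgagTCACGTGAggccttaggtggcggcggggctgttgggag
A match is a description of the letters and not of a bound site. The 7 genes did not share a direction: in 97Q against 25Q with vehicle 4 had a log2 fold change above 0 and 3 below, from -0.42 for Gla to 1.37 for Atg3.

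The transcripts of the proton pump and the proteases were among the most abundant of these genes in neurons, and those of the transcription factors among the least. Per kilobase of exon, the mean level over the 12 sums was highest for Atp6ap2 (749 CPM per kb) and Atp6ap1 (418 CPM per kb), which encode accessory proteins of the V-ATPase. Next came Ctsb at 230 CPM per kb, a cysteine cathepsin, and Sqstm1 at 226 CPM per kb, which encodes p62. Atp6ap2 exceeded 99.7% of the 15091 genes tested on this scale. At the other end stood Tfeb at 0.121 CPM per kb, Uvrag at 2.53 CPM per kb, Tfe3 at 3.12 CPM per kb and Atg7 at 3.72 CPM per kb.

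Within the ULK complex Atg101 and Atg13 had the highest levels, at 39.7 and 22.6 CPM per kb. Both are subunits beside the kinase. With vehicle, Atg13 was at 96.5 ± 26.7 CPM for 25Q against 82.5 ± 27.5 CPM for 97Q, and with RGFP109 at 111 ± 28.0 CPM against 105 ± 22.7 CPM (SD, n = 3 sums). Atg101 was at 59.7 ± 34.7 and 88.6 ± 55.5 CPM with vehicle, and at 49.9 ± 29.8 and 55.4 ± 16.0 CPM with RGFP109, in the same order. The PI3-kinase complex was led by Becn1 at 23.5 CPM per kb, which encodes its regulator Beclin 1, and by Pik3c3 at 16.5 CPM per kb, the kinase itself. Becn1 was at 162 ± 85.8 and 174 ± 34.4 CPM with vehicle, and at 198 ± 111 and 130 ± 70.1 CPM with RGFP109. Pik3c3 was at 81.9 ± 22.7 and 60.5 ± 48.9 CPM with vehicle, and at 78.4 ± 40.1 and 74.2 ± 54.1 CPM with RGFP109. In each of these 4 genes the ranges of the groups overlapped.

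Among the abundant genes, Atp6ap2 with vehicle was at 2203 ± 718 CPM for 25Q against 1885 ± 399 CPM for 97Q, and at 2032 ± 568 and 1727 ± 391 CPM with RGFP109. Atp6ap1 was at 1194 ± 381 and 1374 ± 514 CPM with vehicle, and at 1170 ± 561 and 1325 ± 472 CPM with RGFP109. Gaa was at 715 ± 443 and 737 ± 540 CPM with vehicle, and at 863 ± 430 and 694 ± 551 CPM with RGFP109. Tax1bp1, a cargo receptor, was at 311 ± 194 and 433 ± 49.5 CPM with vehicle, and at 308 ± 64.7 and 421 ± 98.0 CPM with RGFP109. For Atp6ap2, Atp6ap1 and Gaa, the SD of every group was wider than the difference between the 25Q and 97Q means of the same treatment. For Tax1bp1 this held only for the SD of 25Q with vehicle.

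With every cell thinned to 900000 counts, 28 of the 52 genes had a count in over 90% of the 104 transgene neurons, and 3 (Optn, Gla and Tfeb) in under 50%. Unthinned, Tfeb had a count in 12 of 104 neurons (11.5%), with 214 counts in all, and it was the only gene of the 52 that did not pass the filter on low counts. Tfe3, its relative, had a count in 82 of 104 neurons. The spread between neurons differed between genes: the coefficient of variation of single-cell CPM was 0.445 for Atp6v0d1, 0.478 for Atp6ap2, 0.499 for the receptor Tax1bp1 and 0.518 for Map1lc3b, against 2.01 for Ctsz and 2.10 for Gla. For Ctsz, 10 of the 104 neurons held 60.7% of the summed CPM. Ctsl had a coefficient of 2.39, and 0.539 without neuron 9 of 97Q with RGFP109, without which Gla was at 2.02 and Ctsz at 2.04.

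**Figure D1:**
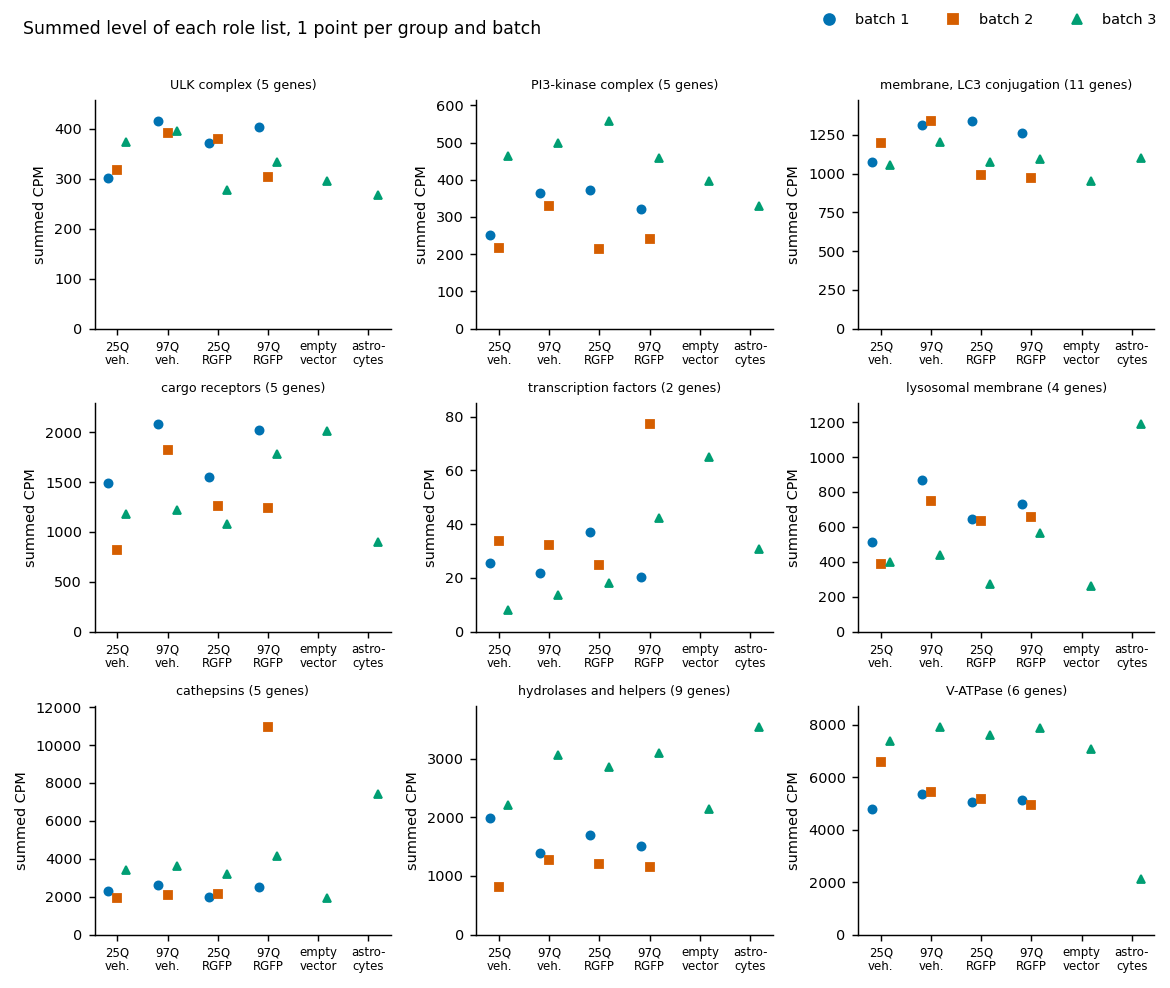
Summed CPM of each role list (y axes, from 0) in the 14 sums by group (x axes), coloured by batch. The cathepsin sum of 97Q with RGFP109 in batch 2 stands at 10954 CPM, above all others, and the astrocyte sum of the V-ATPase list at 2101 CPM lies below every neuron sum.

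By role, the sums of the V-ATPase list ran from 4791 to 7916 CPM over the 13 neuron sums, and those of the membrane and LC3 conjugation list from 955 to 1339 CPM. The cathepsin list ran from 1909 to 10954 CPM. Its highest sum, 97Q with RGFP109 in batch 2, was 3756 CPM without neuron 9 of that group. The plot of summed levels by role shows that the sums of batch 3 lay higher than those of batches 1 and 2 for the V-ATPase list in each of the 4 groups.

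Expansion of the repeat from 25 to 97 glutamines under vehicle came with no change that passed the test in any of the 51 tested genes. edgeR called 0 of 51 (0.0% of all 15091 genes tested), DESeq2 0 of 51 (1.41% of all genes) and limma with precision weights 0 of 51 (0.0%). At an unadjusted edgeR p under 0.05, 4 genes were higher and 0 lower, against 1.5% and 2.46% of all genes. DESeq2 gave 5 higher and 0 lower (4.37% and 6.57% of all genes), and limma 4 and 0 (2.87% and 3.29%). The log2 fold change was above 0 in 35 of 51, against 52.4% of all genes, and its median was 0.22 against 0.057 over all genes. Within batches 1, 2 and 3 the median difference in log2(CPM + 1) was 0.31, 0.65 and 0.26, against 0.037, 0.082 and -0.021 over all genes. These are counts and not a test, since the genes share libraries.

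Map1lc3a, which encodes the LC3 protein LC3A, had the smallest p (chr2:155276297-155278073). Its level was 72.5, 13.4 and 25.3 CPM in the 25Q sums of batches 1, 2 and 3, and 166, 274 and 44.8 CPM in the 97Q sums. Each 97Q sum was above the 25Q sum of its batch, but the groups overlapped, since the 97Q sum of batch 3 was below the 25Q sum of batch 1. The 97Q mean was 161 ± 115 CPM, against 37.1 ± 31.3 CPM for 25Q (SD, n = 3 sums). Its log2 fold change was 2.16 (SE 0.67, edgeR p = 0.010, adjusted p = 0.969). Without batch 2 it was 1.02, and the smallest adjusted p over the alternatives was 0.0719, in DESeq2. Map1lc3b had a higher mean CPM than Map1lc3a over the 12 sums, but a lower level per kilobase of exon (45.2 against 75.8 CPM per kb). Map1lc3b was at 260, 367 and 379 CPM in 25Q and at 343, 337 and 408 CPM in 97Q, with overlapping groups.

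Atp6v1h, the regulatory subunit H of the V-ATPase, was at 406, 222 and 587 CPM in the 25Q sums and at 608, 500 and 899 CPM in the 97Q sums of the same batches. The 97Q sum was higher in each batch, and the groups overlapped because batch 3 stood high in both. For Atp6v1h the log2 fold change was 0.73 (SE 0.24, edgeR p = 0.0116, adjusted p = 0.969). The other 5 V-ATPase genes had log2 fold changes from -0.27 to 0.38.

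Lamp1, a glycoprotein of the lysosomal membrane, was at 156, 80.2 and 97.3 CPM in 25Q and at 464, 373 and 130 CPM in 97Q. Only the 97Q sum of batch 3 fell within the range of the 25Q sums, and the log2 fold change was 1.21 (SE 0.44, edgeR p = 0.0212, adjusted p = 0.969). Its partner Lamp2 was at 233, 72.2 and 264 CPM in 25Q and at 225, 208 and 283 CPM in 97Q, which overlap widely. Atg3, the enzyme that transfers LC3 to lipid, was at 134, 72.3 and 8.80 CPM in 25Q and at 126, 219 and 42.8 CPM in 97Q. It was higher in 2 of 3 batches, with a log2 fold change of 1.37 (SE 0.61, edgeR p = 0.0493, adjusted p = 0.969). Leaving out batch 1, 2 or 3 took the unadjusted p of Atg3 to 0.0709, 0.0879 and 0.334, and its log2 fold change was 0.84 without batch 3. Pik3r4, the scaffold subunit of the PI3-kinase complex, rounded out the 5 smallest p with a log2 fold change of 1.17 (SE 0.60, edgeR p = 0.0826, adjusted p = 0.969), which was 0.52 without batch 2.

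**Figure D2:**
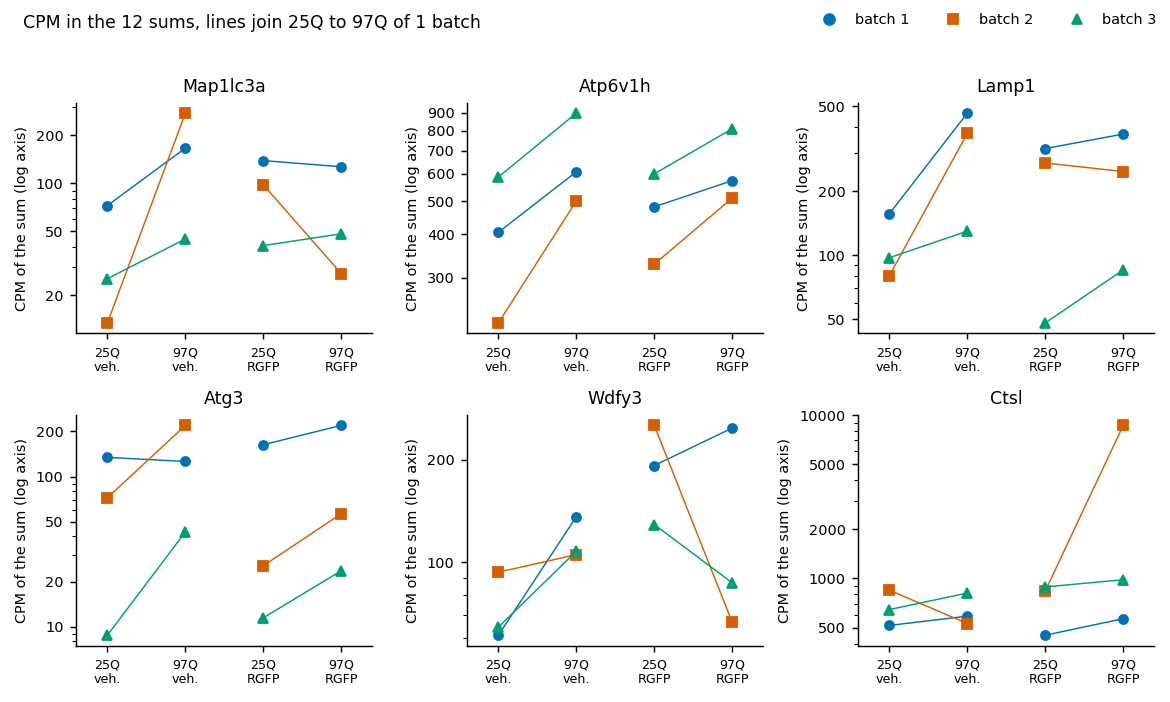
CPM (log axis) of 6 genes in the 12 sums, with lines from the 25Q sum to the 97Q sum of the same batch and treatment. For Atp6v1h the 97Q end is the higher one on all 6 lines, for Map1lc3a on the 3 vehicle lines and 1 of the other 3, and the Ctsl sum of 8650 CPM is a single point.

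The groups did not overlap for 4 genes, all higher in 97Q (3.78% of all genes were), and for 0 lower (4.68% of all genes): Atg14, Atg5, Optn and Wdfy3, named after their values were seen. Atg14, which directs the PI3-kinase complex to autophagy, was at 7.50, 8.26 and 9.69 CPM in 25Q and at 67.2, 32.7 and 68.9 CPM in 97Q. Wdfy3, an adaptor known for the removal of aggregated proteins, was at 61.1, 93.5 and 64.5 CPM in 25Q and at 136, 105 and 108 CPM in 97Q. The adjusted edgeR p of these 4 was not under 0.05. By role, fold changes above 0 were found in 5 of 5 cathepsins (median 0.11), 4 of 5 cargo receptors (median 0.60), 4 of 5 PI3-kinase genes (median 1.17), 3 of 5 ULK genes (median 0.30), 7 of 11 conjugation genes (median 0.089), 5 of 9 hydrolases (median 0.34), 4 of 6 V-ATPase genes (median 0.11) and 2 of 4 lysosomal membrane genes (median 0.040). Sqstm1 led the cargo receptors by p, with 959, 402 and 386 CPM in 25Q and 1315, 1217 and 386 CPM in 97Q (log2 fold change 0.74, SE 0.41, edgeR p = 0.107).

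**Figure D3:**
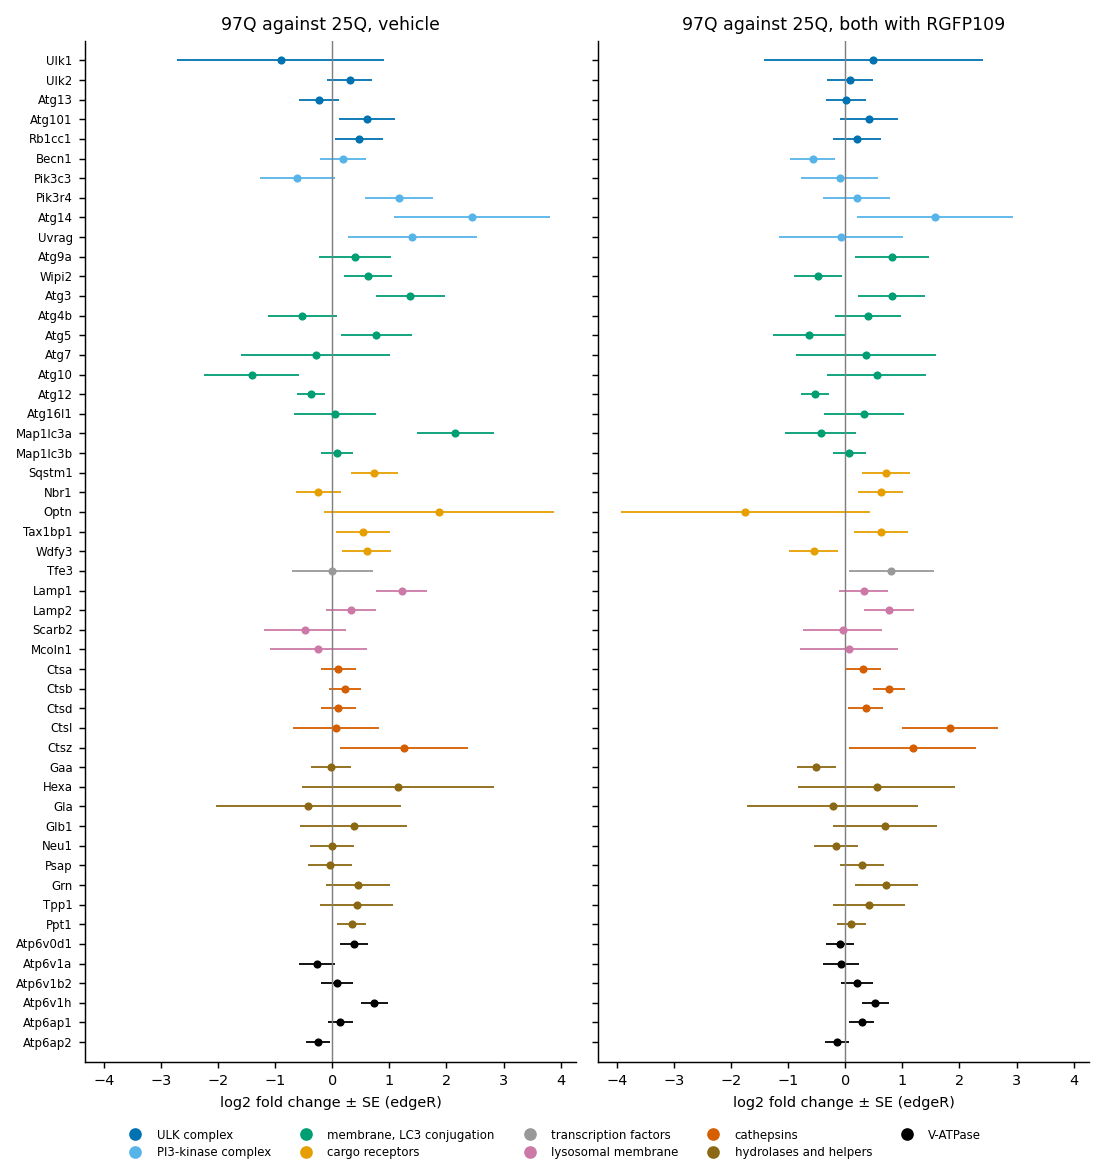
Log2 fold change of 97Q against 25Q (x axis, points with SE bars from edgeR, n = 3 sums per group) for the 51 tested genes, coloured by role, under vehicle and with RGFP109. In each panel 35 of 51 points lie above 0, and no gene passed the adjusted threshold.

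With RGFP109 in both groups, 97Q against 25Q again gave 0 of 51 calls by edgeR (0.0% of all genes), 0 by DESeq2 (1.84% of all genes) and 0 by limma (0.0199%). At an unadjusted edgeR p under 0.05, 1 gene was higher (1.9% of all genes) and 0 lower (1.84%), in DESeq2 2 and 1 (5.51% and 5.22%), and in limma 2 and 1 (3.05% and 2.67%). The log2 fold change was above 0 in 35 of 51 (50.1% of all genes), with a median of 0.30 against 0.0029 over all genes. This median was 0.079 without batch 2 and 0.25 without neuron 9 of 97Q with RGFP109. Within batches 1, 2 and 3 the median difference in log2(CPM + 1) was 0.15, 0.19 and 0.19, against 0.052, -0.23 and 0.097 over all genes. These sums are not the sums of the vehicle comparison. Pan-neuronal markers were lower in 97Q in each batch here, at 5264, 4149 and 8577 CPM against 7491, 8444 and 9707 CPM in 25Q, with 10 of 12 genes below 0 and 2 of them at an unadjusted p under 0.05. Oligodendrocyte lineage markers were lower in each batch too, at 154, 47.9 and 89.2 CPM against 243, 175 and 103 CPM, with 7 of 7 tested genes below 0. The part of these markers in the values of the 51 genes was not tested.

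Ctsb, cathepsin B, was the gene with p under 0.05. It was at 1091, 789 and 1545 CPM in 25Q and at 1461, 1589 and 2246 CPM in 97Q, and the 97Q sum was higher in each batch although the groups overlapped. For Ctsb the log2 fold change was 0.77 (SE 0.28, edgeR p = 0.0226, adjusted p = 0.9995), and 0.68 (unadjusted p = 0.0222) without neuron 9. Without batch 2 it was 0.38. Ctsl, cathepsin L, was at 450, 839 and 888 CPM in 25Q and at 568, 8650 and 983 CPM in 97Q. Its log2 fold change of 1.83 (SE 0.84, edgeR p = 0.0566, adjusted p = 0.9995) was 0.16 without neuron 9 of 97Q in batch 2, whose sum then held 979 CPM. All 5 cathepsins had a fold change above 0, with a median of 0.77. The microglia markers, summed to 4662 CPM in that batch 2 sum and to 21.9 to 229 CPM in the other 11, moved with Ctsl in 1 library.

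Atp6v1h was again higher in 97Q in each batch, at 573, 510 and 809 CPM against 481, 328 and 599 CPM (log2 fold change 0.52, SE 0.24, edgeR p = 0.0516, adjusted p = 0.9995). Without batch 2 the log2 fold change was 0.24, and without neuron 9 it was 0.57 (unadjusted p = 0.0470). Lamp2 was at 255, 367 and 422 CPM in 97Q against 167, 284 and 194 CPM in 25Q (log2 fold change 0.76, SE 0.43, edgeR p = 0.110, adjusted p = 0.9995). Atg12, the ubiquitin-like partner of Atg5, was lower: 151, 189 and 267 CPM in 97Q against 270, 272 and 347 CPM in 25Q. Its groups did not overlap, and it was the only such gene here, with 1 lower (3.58% of all genes) and 0 higher (3.6%). For Atg12 the log2 fold change was -0.53 (SE 0.24, edgeR p = 0.0568, adjusted p = 0.9995), and -0.34 without batch 1. Without neuron 9 it was -0.57 (unadjusted p = 0.0425).

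Over the 6 comparisons of 97Q with 25Q within a batch and treatment, 5 genes were higher in 97Q every time (2.67% of all genes tested): Atg14, Atg9a, Atp6v1h, Ctsz and Grn. Only Atg12 was lower every time (2.81% of all genes). Atg9a encodes the lipid scramblase that brings membrane to the forming autophagosome, and Grn encodes progranulin, a precursor of lysosomal peptides. Ctsz was 54.8, 0.432 and 13.8 CPM in 25Q and 81.4, 34.2 and 26.4 CPM in 97Q under vehicle, so its low and uneven level carries the same direction with overlapping groups. For Grn the batch 2 vehicle difference was a tie in effect, at 0.00049 on the log2 scale. These genes were singled out after their values were seen.

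RGFP109 against vehicle in 97Q, which uses the 97Q sums of both comparisons above, gave 0 of 51 calls by edgeR (0.0% of all genes), by DESeq2 (0.722% of all genes) and by limma (0.0%), and 0 genes at an unadjusted edgeR p under 0.05 in either direction (1.39% higher and 1.09% lower over all genes). DESeq2 gave 2 higher and 1 lower (4.78% and 3.85% of all genes), and limma 0 and 0 (2.25% and 1.99%). The log2 fold change was above 0 in 29 of 51 (48% of all genes), with a median of 0.068 against -0.041, which was -0.044 without batch 2. Ctsl had the smallest p, at 588, 530 and 815 CPM with vehicle and at 568, 8650 and 983 CPM with RGFP109. Its log2 fold change of 1.90 (SE 0.86, edgeR p = 0.0534, adjusted p = 0.999) was 0.32 (unadjusted p = 0.250) without neuron 9. Atg5, which is joined to Atg12, was at 109, 69.8 and 65.8 CPM with vehicle and at 65.1, 4.10 and 58.8 CPM with RGFP109. Without neuron 9 the batch 2 value with RGFP109 was 0.472 CPM. The groups of Atg5 did not overlap, as in 3.39% of all genes in this direction, and 0 genes were higher without overlap (2.76% of all genes). The nearest sums of the groups, 65.1 and 65.8 CPM, were almost equal. Its log2 fold change was -1.29 (SE 0.66, edgeR p = 0.0797, adjusted p = 0.999), and -0.51 without batch 2. Without neuron 9 it was -1.48 (SE 1.07, unadjusted p = 0.199).

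Map1lc3a, Ctsb and Tfe3 completed the 5 smallest p in this comparison. Map1lc3a was at 127, 27.2 and 48.3 CPM with RGFP109 in 97Q, lower than with vehicle in 2 of 3 batches (log2 fold change -1.23, SE 0.65, edgeR p = 0.0911, adjusted p = 0.999). Without batch 2 this was -0.17. Ctsb was higher with RGFP109 in each batch (log2 fold change 0.51, SE 0.28, edgeR p = 0.102, adjusted p = 0.999), and 0.16 without batch 2. Tfe3 was higher in 2 of 3, from 21.6, 30.1 and 13.2 CPM to 17.1, 76.5 and 42.2 CPM (log2 fold change 1.24, SE 0.73, edgeR p = 0.123, adjusted p = 0.999).

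RGFP109 against vehicle in 25Q, which shares its vehicle sums with the first comparison, gave 0 of 51 calls by edgeR (0.0% of all genes), by DESeq2 (1.01%) and by limma (0.0%). At an unadjusted edgeR p under 0.05, 1 gene was higher (1.12% of all genes) and 0 lower (1.4%), in DESeq2 2 and 0 (4.33% and 4.86%), and in limma 2 and 0 (2.33% and 2.16%). The fold change was above 0 in 29 of 51 (50.1% of all genes), with a median of 0.067 against 0.0021. The gene under 0.05 was Wdfy3, at 61.1, 93.5 and 64.5 CPM with vehicle and at 192, 252 and 129 CPM with RGFP109. Its groups did not overlap, and its log2 fold change was 1.33 (SE 0.43, edgeR p = 0.0123, adjusted p = 1.0). Without batch 1 or batch 3 the unadjusted p was 0.0573 or 0.0580. Optn, a receptor for ubiquitinated cargo at 14.3, 0 and 13.1 CPM with vehicle and 24.7, 91.5 and 17.6 CPM with RGFP109, was the other of 2 genes higher without overlap (2.89% of all genes), and 0 were lower without overlap (3.84%).

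Map1lc3a was also higher with RGFP109 in 25Q in each batch, at 138, 97.6 and 40.7 CPM (log2 fold change 1.36, SE 0.63, edgeR p = 0.0594, adjusted p = 1.0), with overlapping groups. Without batch 2 the log2 fold change was 0.89 (unadjusted p = 0.0221). Ppt1, a lysosomal thioesterase, was at 457 ± 186 CPM with RGFP109 against 359 ± 200 CPM with vehicle (SD, n = 3 sums). Wipi2, which binds the lipid made by the PI3-kinase complex, was at 86.8 ± 27.4 CPM against 52.8 ± 12.4 CPM. Tpp1, a lysosomal peptidase, was at 116 ± 38.7 CPM against 64.9 ± 46.3 CPM. Their unadjusted edgeR p were 0.123, 0.135 and 0.173, and the adjusted p of each was 1.0. For Tpp1 the log2 fold change was 0.97, and 0.28 without batch 2, and that of Ppt1 was 0.42, and 0.12 without neurons rich in astrocyte markers.

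The interaction asks whether the drug difference in 97Q departs from that in 25Q. It gave 0 of 51 calls by edgeR (0.0% of all genes), by DESeq2 (0.464%) and by limma (0.0%), with 0 genes higher (1.58% of all genes) and 1 lower (1.02%) at an unadjusted edgeR p under 0.05. DESeq2 gave 0 higher and 1 lower (5.08% and 3.88% of all genes), and limma 0 and 3 (2.29% and 1.9%). The lower gene was Map1lc3a, with a log2 value of -2.59 (SE 0.93, edgeR p = 0.0208, adjusted p = 0.998), and -1.06 without batch 2. With vehicle, its group means were 37.1 CPM for 25Q against 161 CPM for 97Q. With RGFP109 they were 92.2 CPM for 25Q against 67.4 CPM for 97Q. The next 4 by p were Wdfy3 at -1.16, Wipi2 at -1.10, Atg10 at 1.96 and Atg5 at -1.41, with unadjusted edgeR p from 0.0844 to 0.153. Without batch 2, Atg10 was at 0.74 and Atg5 at -0.61, and without batch 3 Atg10 was at 3.60. The log2 value was above 0 in 26 of 51 (48.4% of all genes), with a median of 0.086. Taken from log2(CPM + 1) within batches 1, 2 and 3, the median was below 0, at -0.15, -0.25 and -0.19.

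The neighbouring genes of the pathway gave no call in any of the 5 comparisons either, in the same edgeR fit. Under vehicle, 97Q against 25Q had 20 of 37 other autophagy genes above 0 (median 0.087), 12 of 25 genes of mTORC1 and its lysosomal regulators (median -0.017), 21 of 42 other lysosomal genes (median 0.00026) and 7 of 12 other V-ATPase genes (median 0.072). At an unadjusted p under 0.05 these lists held 1, 1, 1 and 0 genes higher (1.5% of all genes) and 0, 1, 1 and 0 lower (2.46%). With RGFP109 in both groups, 5 of 42 other lysosomal genes were higher at an unadjusted p under 0.05 (1.9% of all genes), and 2 were so without neuron 9. Hdac6, a deacetylase with a known role in the handling of aggregated proteins, led the other autophagy genes under vehicle (log2 fold change 1.25, SE 0.47, edgeR p = 0.0241, adjusted p = 0.969). Atp6v0a1, a membrane subunit of the pump, led the other V-ATPase genes with RGFP109 in both groups (log2 fold change 0.53, SE 0.21, edgeR p = 0.0344, adjusted p = 0.9995). The lysosomal gene with the smallest p there was Ctsc, cathepsin C, with a log2 fold change of 7.89 (SE 2.33, edgeR p = 0.00757, adjusted p = 0.9995), or 6.11 (unadjusted p = 0.0619) without that neuron, which had 69.3 CPM of Ctsc. Its smallest p was in the interaction (log2 value 14.07, SE 3.33, edgeR p = 0.0020, adjusted p = 0.998), where it was 12.96 without that neuron. In the other neurons the median of Ctsc was 0 CPM and the highest value 587 CPM. Log2 values of this size thus do not describe a typical neuron. Rragb, a lysosomal GTPase that recruits mTORC1, was lower with RGFP109 in 97Q (log2 fold change -0.79, SE 0.25, edgeR p = 0.0103, adjusted p = 0.999).

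The batches differed for some of these genes in all groups alike. All 4 sums of batch 3 were above all 8 sums of batches 1 and 2 for 5 genes (2.25% of all genes) and below them for 0 (2.13%). The 5 were Atp6ap1, Atp6v0d1, Ctsa, Ppt1 and Psap. Atp6ap1 was at 1633 to 1961 CPM in batch 3 and at 767 to 1154 CPM in the others. Batch 3 holds 15, 15, 11 and 14 of the neurons of the 4 groups, and the batch is a term of the fit.

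Empty vector neurons carried no human HTT fragment, and they exist as 1 sum in batch 3, so they are compared with other batch 3 sums without a test. The libraries carry no molecular identifiers, so an interval from counts covers counting error alone. Among genes with at least 10 CPM in 1 of 2 sums, 10 of 51 were past 2-fold higher in empty vector neurons than in 25Q vehicle neurons (17.8% of all genes) and 2 were past 2-fold lower (14.0%). Sqstm1 was at 1293 CPM in the empty vector sum and at 386 CPM in the 25Q vehicle, 386 CPM in the 97Q vehicle and 330 CPM in the 25Q RGFP109 sum of batch 3, but at 1028 CPM in the 97Q RGFP109 sum. In single cells Sqstm1 ran from 722 to 1740 CPM (median 1296) in the 9 empty vector neurons. In the 29 neurons of 25Q with vehicle, from batches 1, 2 and 3, it ran from 0.756 to 1324 CPM (median 466). Those of batch 3 alone ran from 40.1 to 1324 CPM, and both ranges overlap that of the empty vector neurons. Lamp2 was the reverse, at 98.6 CPM in empty vector neurons against 264 CPM in 25Q vehicle and 283 CPM in 97Q vehicle. For 97Q vehicle against empty vector, 8 of 51 were past 2-fold higher (15.9% of all genes) and 7 past 2-fold lower (23.0%). Both comparisons share the empty vector sum.

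Astrocytes had more transcript of all 5 cathepsins than empty vector neurons, and less of all 6 V-ATPase genes. Against the empty vector neurons of batch 3, 12 of 51 genes were past 2-fold higher in astrocytes (25.4% of all genes) and 13 past 2-fold lower (35.9%), again 1 sum each and without a test. Scaling by TMM in place of total counts moved the median log2 ratio of all genes from -0.33 to 0.068, and the counts to 14 higher (31% of all genes on that scale) and 10 lower (29.4%). On that scale all 5 cathepsins were still higher and all 6 V-ATPase genes still lower. Endothelial and mural markers summed to 5271 CPM in the astrocyte sum, against 211 CPM in the empty vector sum. In single astrocytes they ran from 296 to 26382 CPM (median 1252), and 7 of the 12 genes of that list had no count in any astrocyte. The part of these markers in the comparison was not tested.

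The 5 cathepsins were each past 2-fold higher, with a median log2 ratio of 1.94. This size depended on the reference, since the empty vector sum of the list, 1909 CPM, was the lowest of the 13 neuron sums. In the 97Q RGFP109 sum of batch 3, Ctsl was at 983 CPM against 1027 CPM in astrocytes, and Ctsb at 2246 CPM against 3565 CPM. Cathepsin D (Ctsd, an aspartic protease) was at 1875 CPM in the astrocyte sum (184643 counts) and at 351 CPM in the empty vector sum (15001 counts), 5.35-fold higher. Ctsb was at 3565 CPM against 930 CPM, and Ctsz, a carboxypeptidase, at 238 CPM against 13.6 CPM, which is 17.5-fold higher. Without the empty vector neuron with the most Ctsz counts, it was 47.2-fold higher. In single cells Ctsd ran from 658 to 3546 CPM (median 1626) in the 14 astrocytes and from 132 to 631 CPM (median 305) in the 9 empty vector neurons, without overlap. Lamp2 ran from 378 to 1587 CPM (median 812) in astrocytes and from 29.6 to 181 CPM (median 95.4) in those neurons, also without overlap. These were the 2 genes with every astrocyte above every empty vector neuron (1.48% of all genes). The separation depended on the neurons chosen. In batch 3, neurons of 97Q with RGFP109 reached 1287 CPM of Lamp2 and 1410 CPM of Ctsd, within the astrocyte ranges.

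Other soluble lysosomal proteins lay on both sides. Tpp1 was at 588 CPM in astrocytes against 87.2 CPM in neurons, Psap, the precursor of the saposins, at 1141 against 191 CPM, and Grn at 501 against 109 CPM. Gla, alpha-galactosidase, was at 1.97 against 18.3 CPM, Neu1, a sialidase, at 43.7 against 153 CPM, and Gaa, acid alpha-glucosidase, at 354 against 904 CPM. Tpp1 was 6.75-fold higher, and 10.4-fold without the empty vector neuron with the most counts of it. Gla was 9.30-fold lower, and 20.4-fold without the astrocyte with the most counts. The 9 genes of this list thus held 3 past 2-fold higher and 3 past 2-fold lower.

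**Figure D4:**
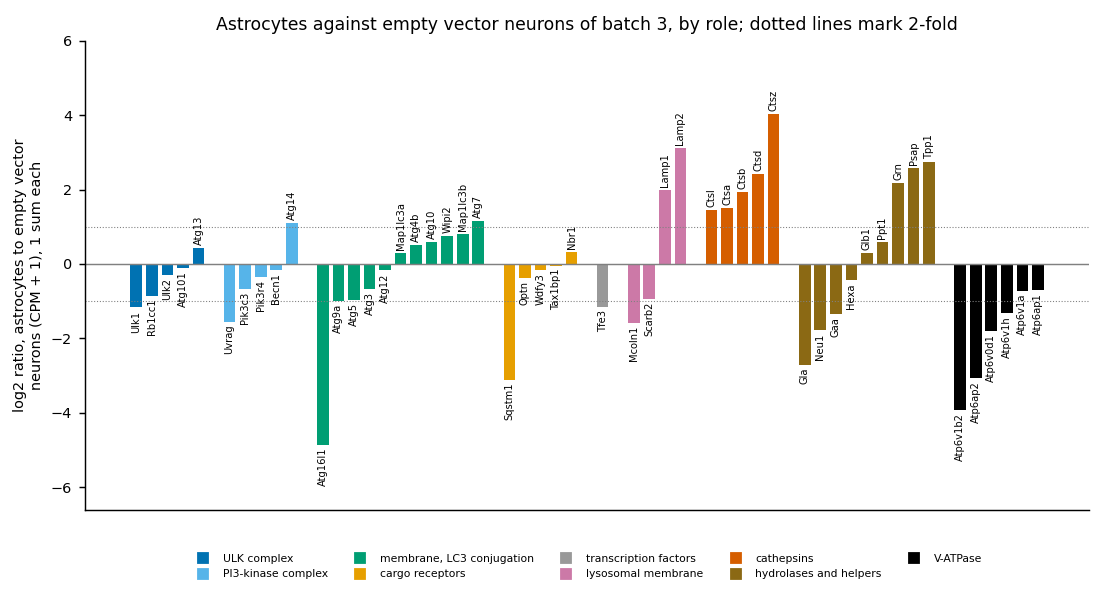
Log2 ratio (y axis, CPM + 1) of the astrocyte sum to the empty vector sum of batch 3 for the 51 genes with at least 10 CPM in 1 of the 2, grouped by role, with dotted lines at 2-fold. All 5 cathepsin bars point up and all 6 V-ATPase bars point down.

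All 6 V-ATPase genes were lower in astrocytes, 4 of them past 2-fold on total counts and 3 on the TMM scale, with a median log2 ratio of -1.56. Atp6v1b2, the brain form of the nucleotide-binding B subunit, was at 120 CPM (11850 counts) against 1853 CPM (79251 counts), 15.4-fold lower. Atp6ap2 was at 225 against 1898 CPM, 8.44-fold lower. In single cells Atp6v1b2 ran from 0.864 to 404 CPM (median 118) in astrocytes and from 1067 to 2225 CPM (median 1833) in empty vector neurons. Atp6ap2 ran from 96.4 to 371 CPM in astrocytes and from 1043 to 3526 CPM in those neurons.

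Sqstm1 was the cargo receptor that differed most, at 149 CPM in astrocytes against 1293 CPM, 8.67-fold lower. Every astrocyte lay below every empty vector neuron for 4 genes, Sqstm1, Atp6v0d1, Atp6v1b2 and Atp6ap2 (3.87% of all genes). The separation of all 4 depended on the neurons chosen. For Sqstm1 the 97Q and 25Q neurons reached down to 27.4 CPM and 0.756 CPM with vehicle, within or below the astrocyte range of 22.3 to 327 CPM. Apart from neuron 9 of 97Q with RGFP109, transgene neurons reached down to 16.2 CPM for Atp6v1b2 and 202 CPM for Atp6ap2. Both values lie within the astrocyte ranges given above. For Atp6v0d1 they reached down to 18.0 CPM, below the astrocyte sum of 122 CPM. Atg16l1, which anchors the LC3 conjugation machinery to the membrane, was at 1.77 CPM (174 counts) in astrocytes and 79.1 CPM (3385 counts) in empty vector neurons, 44.8-fold lower. Of the astrocytes 5 of 14 had a count, and 1 of them held 86.8% of the 174 counts; without it 23 counts were left and the level was 0.254 CPM, 312-fold lower. Tfeb had 183 counts in the astrocytes and 0 in the empty vector neurons, for which the exact Poisson upper limit at 95% is 0.0862 CPM.

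**Figure D5:**
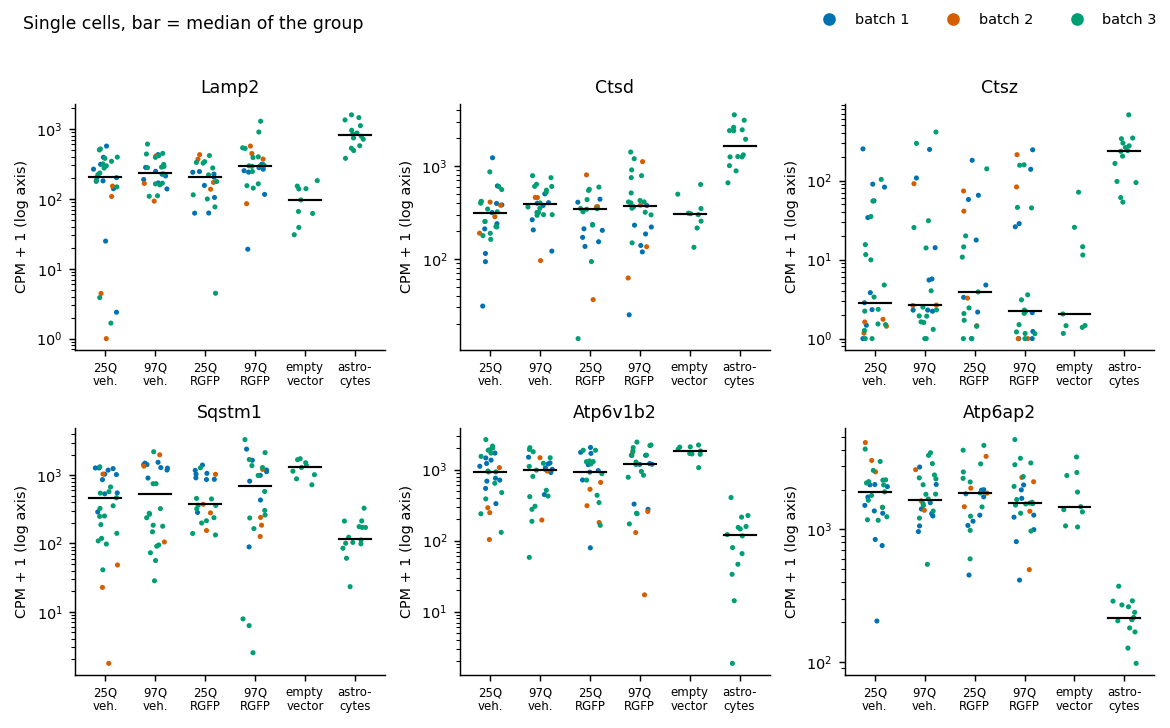
Single-cell CPM + 1 (log axes) of 6 genes in the 6 groups, coloured by batch, with bars at the group medians. By group median, Lamp2 and Ctsd stand highest in the 14 astrocytes and Atp6v1b2 and Atp6ap2 lowest. Some transgene neurons lie within the astrocyte range of each of these genes, and Sqstm1 spreads over more than that range in the transgene groups.

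Set against all 5 neuron sums of batch 3, the astrocyte sum was above all of them for 15 of 51 genes (28.0% of all genes) and below all of them for 18 of 51 (38.9%). The 15 included all 5 cathepsins, Lamp1 and Lamp2, and the 18 all 6 V-ATPase genes with Becn1, Atg5, Atg12 and Sqstm1. The astrocytes' lower number of pan-neuronal reads (a summed 527 CPM against 7779 to 9707 CPM in the 5 neuron sums) goes with the labels of the groups, but does not check single cells. Single astrocytes reached 2558 CPM of these markers, and neurons of all batches other than neuron 9 reached down to 1538 CPM. Across the 104 transgene neurons, Spearman's rho of a list's summed CPM with the summed astrocyte markers ran over the 9 lists from -0.15 for membrane supply and LC3 conjugation to 0.24 for lysosomal membrane proteins. It was 0.19 for cathepsins and -0.12 for both the V-ATPase and the PI3-kinase list. With total counts per neuron, rho was 0.51 for the V-ATPase, 0.48 for the hydrolases, 0.40 for cathepsins and 0.39 for the PI3-kinase list. These coefficients describe cells that share batches, and no p is attached to them.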

How the data were processed

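Patch-seq libraries of 127 cells were analysed from 1 table of read counts per gene that the authors deposited. Per the submitters' processing notes, FastQC, Trimmomatic 0.36, STAR 2.5 and HTSeq 0.9.1 were used with mouse builds GRCm38 and mm10; for settings, annotation release and strand, the entry is "not given in the sources used here". Groups and batches came from the labels. Gene positions and exon lengths are from GENCODE M21 (GRCm38), and promoter windows from RefSeq.

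Raw counts were summed per group and batch. The 12 sums held 8665881 to 76217208 counts each. Genes passing filterByExpr with a count in at least 20% of the 104 transgene neurons (15091) were fitted in edgeR 4.0.16 (R 4.3.3) with TMM scaling, group and batch terms and robust quasi-likelihood tests, with Benjamini-Hochberg adjustment over all 15091 and a threshold of 0.05. There were 6 residual degrees of freedom, and the common biological coefficient of variation was 0.928. DESeq2 1.42.0 and limma 3.58.1 were alternatives, with other filters and scalings, thinning, marker-based exclusions and batches left out. The fit was also run on simulated counts. Their spread was set lower than that of these data, so this run does not measure power or error here. Empty vector neurons and astrocytes form 1 sum each and were compared by log2(CPM + 1) without a test.

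Batch is a term because the labels mark a shared batch. Deviations of sums of the same batch from their group means correlated positively in every pair. The range was 0.156 to 0.23 for batch 1. It was 0.0614 to 0.134 for batch 2 and reached 0.254 to 0.328 for batch 3. Between batches, in pairs of different groups, it spanned -0.262 to 0.0938. The deviations of a group cancel out over its batches, so positive values within batches lower those between batches by construction.

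Genes were named by a rule: in each of 5 comparisons any past the adjusted threshold and the 5 with the smallest p, in each role list the 2 with the highest level per kilobase, the 3 largest and 3 smallest astrocyte ratios, and, optionally, the gene with the smallest p of an other pathway list in a comparison. Others were named after their values were seen. The genes, lists and tests were chosen with earlier results of these data known.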

Additional observations from a re-analysis of the deposited data

Results flagged for a closer look

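In the 9 empty vector neurons the lowest cell stood far from the rest for 4 genes, on the log2(CPM + 1) scale: Atg12 at 11.8 CPM (nearest neuron 80.6 CPM), Atg16l1 at 4.06 CPM (nearest 31.8 CPM), Map1lc3b at 29.2 CPM (nearest 159 CPM) and Atp6v1b2 at 1066.5 CPM (nearest 1647 CPM). In all, 30 gene and group combinations were tested in this way, and chance gives about 1 in 20.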

How the results depend on the processing

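In each comparison 0 members passed the adjusted threshold under any alternative. Of the medians and counts, 135 values stayed within the margin set for them and 31 medians moved. All 370 values of named genes kept their direction and side of the adjusted threshold. Those results were picked for the smallest p in the edgeR fit, and the alternatives reuse its cells, so a kept direction was favoured in advance. With RGFP109 in both groups the median log2 fold change of 0.30 was 0.13 with limma, 0.197 with no replicate block (no batch term), 0.222 from mean CPM of single cells, 0.372 without neurons rich in astrocyte markers, 0.267 with only the 2 groups compared, 0.254 without neuron 9 of 97Q with RGFP109 (an alternative chosen after seeing the data), and 0.0793 to 0.4045 with 1 batch left out. For RGFP109 in 97Q it was -0.0402 from mean CPM and -0.0437 to 0.186 with 1 batch left out, and for RGFP109 in 25Q it was 0.212 from mean CPM. The interaction median of 0.086 was -0.108 with limma, 0.00296 with filterByExpr alone, -0.0285 with no filter, -0.0561 with thinned cells, -0.0584 from mean CPM, -0.0794 with astrocyte markers as covariate, -0.0110 without neuron 9, and -0.234 to 0.205 with 1 batch left out, so it had no stable sign. From mean CPM, with TMM and without neurons rich in astrocyte markers, the median log2 ratio was -0.152, 0.174 and -0.179 for astrocytes against empty vector, -0.186, -0.0977 and -0.0737 for empty vector against 25Q vehicle, and 0.296, 0.336 and 0.356 for 97Q vehicle against empty vector. The cause of these moves was not tested. Batch 2 sums hold 3 or 4 neurons each. Leaving out the cell with the most counts of a gene, also chosen after seeing the data, was run for the astrocyte and empty vector levels only.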
